A study of Mus musculus with 6 samples.

Results

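The genes described here are 9 mouse genes, all but the receptor gene Heg1 with human counterparts known to be mutated in vascular malformations: the cerebral cavernous malformation (CCM) genes Krit1, Ccm2 and Pdcd10, their receptor Heg1 and kinase Map3k3, and the RAS-MAPK and G protein genes Rasa1, Braf, Map2k1 and Gnaq. They were chosen by symbol from a table of 55450 genes, and each of the 9 matched exactly 1 row. The 6 libraries are poly(A) RNA-seq of cells enriched for brain endothelium at postnatal day 7, from mice on a mixed FVB/N and C57BL/6 background with both sexes used. In the 3 mutant libraries the mice were Cdh5(PAC)-CreERT2; Rbpjflox/flox, and in the 3 control libraries Cdh5(PAC)-CreERT2; Rbpjflox/WT, so all mice carried an endothelial, tamoxifen-inducible Cre and control mice also had 1 floxed Rbpj allele. All pups received 100 µg tamoxifen on days 1 and 2. Cells were enriched on CD31 beads, and RNA of many mice was pooled for each group before sequencing. Nothing in the labels says that a group's 3 libraries stem from different pools, so p-values measure only library-to-library spread, possibly technical.

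Krit1, Ccm2 and Pdcd10 proteins form a complex that Heg1, a transmembrane receptor, holds at endothelial junctions. Through Ccm2 the complex binds the kinase MEKK3, which Map3k3 encodes, and restrains its signalling through ERK5 to the transcription factors Klf2 and Klf4; loss of the complex in endothelium causes cavernous malformations of the brain. Braf and Map2k1 encode the kinases BRAF and MEK1 that carry the RAS signal to ERK, and Rasa1 encodes a GTPase-activating protein that switches RAS off. Gnaq encodes a G protein subunit that activates phospholipase C beta. Somatic activating mutations of MAP3K3, MAP2K1 and BRAF, and of GNAQ in capillary malformation, and loss of RASA1 in capillary and arteriovenous malformation, are known in patients. Rbpj is the DNA-binding protein of the Notch pathway, and the series title sets the comparison in brain arteriovenous malformation. The comparison asks how RNA of these genes differs between mutant and control libraries of cells enriched for endothelium.

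Total counts per library ran from 75744913 to 82092461, and low counts piled up at 4, so that 1 unit of count is not 1 read. The members had between 1791 and 18776 counts in a library. Expression is given as CPM, the count scaled to library size with TMM factors. Rbpj itself had 47.9, 46.8 and 45.2 CPM in mutant libraries and 54.3, 54.3 and 53.8 CPM in control libraries, a log2 fold change of -0.21 ± 0.042 (SE), with adjusted p = 0.0129 by the edgeR quasi-likelihood test. Its adjusted p was 0.051, 0.0571 and 0.0543 without mutant library 2, control library 1 and control library 2. The gene-level count also covers exons outside any deleted part, so it checks the labels only weakly. The 12 endothelial markers summed to 14084 to 15329 CPM in mutant libraries and 13802 to 14210 CPM in control libraries; Emcn, Pecam1 and Tie1 were higher, Tek and Cdh5 lower and the other 7 not called. Markers of other cells were also present: the sums were 1165 to 1217 against 1473 to 1506 CPM for microglia, 542 to 722 against 827 to 937 CPM for fibroblasts, and 262 to 393 against 480 to 529 CPM for astrocytes (mutant against control). For erythroid genes they were 4665 to 4961 against 6974 to 7179 CPM, for pericyte and smooth muscle genes 4218 to 4311 against 4148 to 4268 CPM, for neurons 215 to 258 against 202 to 213 CPM, and for oligodendrocytes 78.7 to 97.8 against 73.8 to 79.5 CPM. Of these markers, 6 of 10 microglial, 2 of 8 fibroblast, 2 of 8 astrocyte and 5 of 7 erythroid genes were lower and 0 higher in the mutant. The pericyte and smooth muscle marker with the highest CPM was Rgs5, at 2172 ± 82.1 CPM in mutant and 2043 ± 38.2 CPM in control libraries (SD, n = 3 each; not called), and the list moved both ways. Of these 12 markers 3 were higher: the pericyte genes Abcc9 and Kcnj8, with log2 fold changes of 0.52 and 0.49, and Cspg4, with 0.19. Lower were 6: the smooth muscle genes Acta2, Tagln, Myh11 and Cnn1 with -1.32, -1.17, -1.02 and -1.84, the pericyte gene Vtn with -0.18, and Notch3 with -0.19. Pericyte genes thus stood on both sides. Of the 8 neuronal markers 0 were higher and 1 lower, and of the 8 oligodendrocyte markers 2 were higher and 1 lower. Among all genes tested, 7.56% were higher and 6.83% lower. No marker was at 0 in all libraries. In such bulk samples fewer cells of a type and less RNA per cell cannot be told apart.

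The promoters below are shown because Rbpj binds DNA, and because Heg1, Braf and Map2k1 are the members whose RNA differed between the groups. Each window runs from 250 bases before to 50 bases after a RefSeq gene start (GRCm38.p6) and is written 5′ to 3′ on the strand of the gene. Capitals mark the RBPJ core motif TGGGAA or its longer form GTGGGAA, searched on both strands; every GTGGGAA also holds a TGGGAA. Rasa1 is shown as the member that holds the longer form, and Krit1 because its window also holds the start of a gene on the opposite strand. The windows are Heg1 at chr16:33684216-33684515 (plus strand), Rasa1 at chr13:85289437-85289736 (minus), Braf at chr6:39725414-39725713 (minus), Map2k1 at chr9:64253556-64253855 (minus) and Krit1 at chr5:3802915-3803214 (plus).
Heg1: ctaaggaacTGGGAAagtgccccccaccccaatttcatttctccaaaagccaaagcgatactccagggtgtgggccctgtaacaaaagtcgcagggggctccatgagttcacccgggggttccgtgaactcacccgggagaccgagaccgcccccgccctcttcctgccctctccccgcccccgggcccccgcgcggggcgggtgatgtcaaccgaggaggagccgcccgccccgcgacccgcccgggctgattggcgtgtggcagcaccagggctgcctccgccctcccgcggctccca
Rasa1: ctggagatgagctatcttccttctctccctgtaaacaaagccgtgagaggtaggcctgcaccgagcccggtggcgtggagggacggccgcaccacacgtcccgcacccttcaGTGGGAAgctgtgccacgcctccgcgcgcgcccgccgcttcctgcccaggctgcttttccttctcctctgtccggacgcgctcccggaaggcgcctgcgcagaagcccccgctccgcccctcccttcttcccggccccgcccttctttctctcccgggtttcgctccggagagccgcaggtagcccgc
Braf: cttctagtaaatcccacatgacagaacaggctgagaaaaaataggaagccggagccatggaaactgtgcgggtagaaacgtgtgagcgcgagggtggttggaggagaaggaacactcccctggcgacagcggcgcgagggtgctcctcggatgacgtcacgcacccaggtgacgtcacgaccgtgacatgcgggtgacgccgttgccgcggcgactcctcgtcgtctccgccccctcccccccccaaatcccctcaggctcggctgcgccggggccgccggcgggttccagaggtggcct
Map2k1: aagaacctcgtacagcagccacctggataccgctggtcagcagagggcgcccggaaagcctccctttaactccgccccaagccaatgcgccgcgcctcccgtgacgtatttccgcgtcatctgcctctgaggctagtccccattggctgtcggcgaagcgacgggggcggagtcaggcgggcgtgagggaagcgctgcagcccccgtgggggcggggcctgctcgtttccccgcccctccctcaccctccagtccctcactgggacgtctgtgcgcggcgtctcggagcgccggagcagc
Krit1: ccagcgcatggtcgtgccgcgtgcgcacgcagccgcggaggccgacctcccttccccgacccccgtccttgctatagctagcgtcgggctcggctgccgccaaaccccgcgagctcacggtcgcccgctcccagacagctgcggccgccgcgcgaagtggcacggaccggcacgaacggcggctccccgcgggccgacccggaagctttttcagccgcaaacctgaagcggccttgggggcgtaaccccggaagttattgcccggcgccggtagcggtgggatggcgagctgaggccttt

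The RefSeq table held 11 windows for the 9 genes. TGGGAA stood in 4 of them, 1 each for Ccm2, Pdcd10, Heg1 and Rasa1, against 25.6% of all 32851 promoter windows of this length. GTGGGAA stood in 1, that of Rasa1, against 6.38% of all windows. In Heg1 the motif began 241 bases before the start, in Ccm2 176 bases, in Rasa1 137 bases and in Pdcd10 80 bases before it. The windows of Braf, Map2k1, Krit1, Map3k3 and Gnaq held neither form. A match is only a run of letters, and of the 3 members whose RNA differed, Heg1 had one and Braf and Map2k1 had none.

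All 9 genes passed the low-count filter, and their RNA differed little between the groups. Braf and Map2k1, the RAF and MEK kinases, were higher in mutant libraries by 19.0% and 11.5%, and the receptor Heg1 was lower, a percent change of -16.4. The other 6 did not pass the test, which was an adjusted p under 0.05 over all 19549 genes tested. The share of all genes called was 14.4%, with 7.56% higher and 6.83% lower, against 3 of 9 members, 2 higher and 1 lower. Among the 6044 genes within the members' range of mean CPM, 23.7% were called, and 3 of 9 is too small a count to set the members apart from genes of like level. The median log2 fold change of the members was 0.03, against -0.01 for all genes. Their median size of change without sign was 0.10 on the log2 scale, against 0.12 for genes of like level. Mutant and control libraries did not overlap for 5 of the 9, against 34.1% of all genes: these were Braf, Map2k1 and Ccm2 on the higher side and Heg1 and Gnaq on the lower. For genes of like level this share was not computed, so 5 of 9 is not read as an excess. With 1 library left out the number of members called lay between 0 and 2: it was 1 without mutant library 1, mutant library 2 or control library 1, 2 without mutant library 3, and 0 without control library 2 or control library 3.

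**Figure D1:**
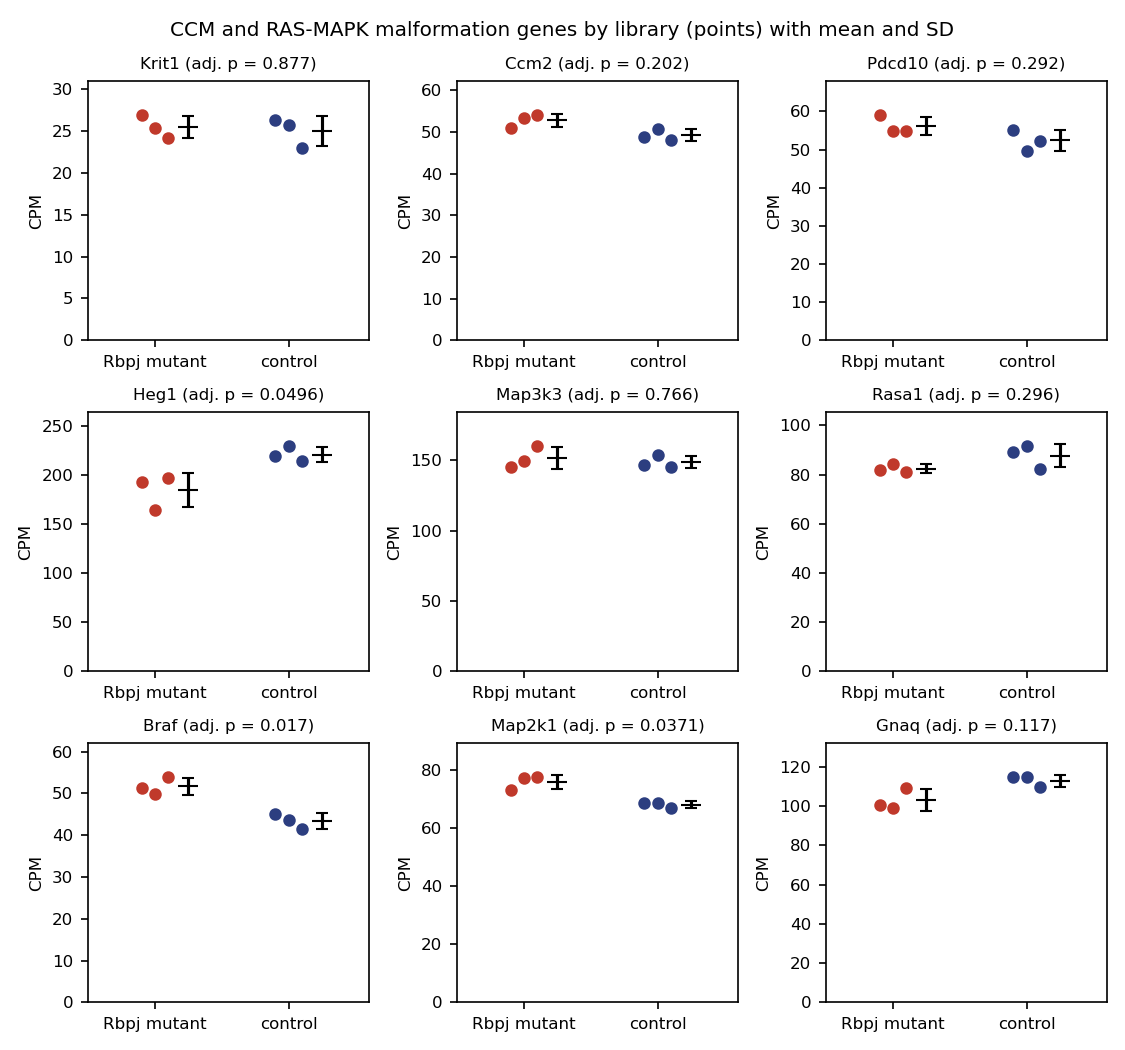
CPM of the 9 members (vertical axes from 0) in each Rbpj mutant and control library; points are libraries, bars the mean and SD of 3, and adjusted p is from the edgeR quasi-likelihood test. Groups are apart for Ccm2, Heg1, Braf, Map2k1 and Gnaq, of which Heg1, Braf and Map2k1 passed the test.

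**Figure D2:**
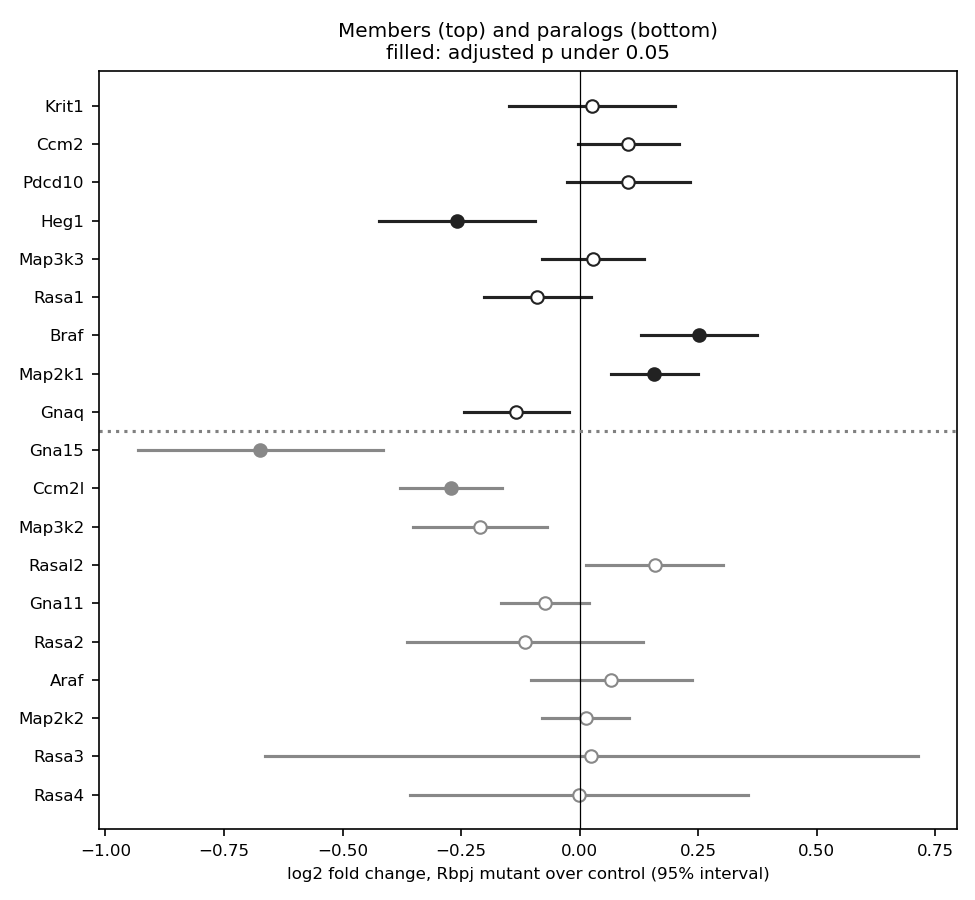
Log2 fold change of Rbpj mutant over control with its 95% interval for the members (black, top) and paralogs (grey, bottom); filled points had an adjusted p under 0.05. Gna14, at 1.43, is left off for scale.

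Of the genes of the CCM complex, Krit1, Ccm2 and Pdcd10, none passed the test. Krit1 (ENSMUSG00000000600, chromosome 5, 3803184 to 3845564, plus strand, GRCm38) encodes the scaffold that binds the receptor. It had 26.8, 25.3 and 24.2 CPM in mutant libraries and 26.3, 25.7 and 22.9 CPM in control libraries, and the groups overlapped throughout. The percent change was 1.82, with a 95% interval of -9.80 to 14.9 and adjusted p = 0.877 (edgeR). Ccm2 (ENSMUSG00000000378, chromosome 11, 6546887 to 6596744, plus strand) encodes the adaptor that binds MEKK3. Its RNA was at 50.9, 53.4 and 54.0 CPM in mutant libraries and 48.7, 50.7 and 48.0 CPM in control libraries. Every mutant library lay above every control library, mutant 1 and control 2 by a narrow margin. The change was 7.38% (95% interval -0.264 to 15.6, adjusted p = 0.202 by edgeR). Pdcd10 (ENSMUSG00000027835, chromosome 3, 75516490 to 75556856, minus strand) encodes the partner that links the complex to kinases of the STK24, STK25 and STK26 group. It had 59.0, 54.9 and 54.9 CPM in mutant libraries and 55.2, 49.6 and 52.4 CPM in control libraries. The highest control library lay above the lower pair of mutant libraries. For Pdcd10 the change was 7.39% (95% interval -1.79 to 17.4, adjusted p = 0.292 by edgeR). The upper ends of these intervals thus stood at 14.9%, 15.6% and 17.4%, and the lower ends at -9.80%, -0.264% and -1.79%.

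Krit1 and Pdcd10 each start close to a gene on the other strand. The start of Ankib1, a ubiquitin ligase gene, lies 259 bases from that of Krit1, inside the Krit1 window printed above. Ankib1 had 52.4, 51.4 and 51.1 CPM in mutant libraries and 52.0, 54.2 and 48.7 CPM in control libraries (adjusted p = 0.996 by edgeR). Serpini1, which encodes neuroserpin, starts 691 bases from Pdcd10. Its values were 8.83, 10.2 and 8.36 CPM in mutant libraries and 7.51, 9.53 and 9.63 CPM in control libraries (adjusted p = 0.894 by edgeR). Neither partner passed the test, as neither member did. A small nucleolar RNA gene, Gm24000, starts 652 bases from Ccm2 and had at most 0.0245 CPM in any library.

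Heg1 (ENSMUSG00000075254, chromosome 16, 33684370 to 33771576, plus strand), the receptor that recruits the complex to junctions, was lower in the mutant. It had 192.7, 164.7 and 197.0 CPM in mutant libraries and 219.2, 229.6 and 214.7 CPM in control libraries. All 3 mutant libraries lay below the control libraries, mutant library 2 farthest. The log2 fold change was -0.26 ± 0.0696 (SE), with a percent change of -16.4 (95% interval -25.4 to -6.39) and adjusted p = 0.0496 (edgeR), just under the threshold. Leaving out any 1 library ended the call, with an adjusted p of 0.0795, 0.0632 and 0.0523 without mutant library 1, 2 and 3, and of 0.135, 0.165 and 0.099 without control library 1, 2 and 3. The log2 fold change was -0.18 without mutant library 2 and between -0.30 and -0.22 in the other 5 fits. Heg1 shares 318 exon bases with an antisense gene, Gm15657, which was at 0 CPM in 5 libraries and at 0.0945 CPM in mutant library 3.

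Genes of the proteins that act with the complex were taken as a list of 8. Of these 1 was higher, 1 lower and 6 not called. The share called was 14.4% among all genes and 23.7% among those within the members' range of mean CPM. The median was 0.06 on the log2 scale, against -0.01 for all genes. Ccm2l, a paralog of Ccm2 expressed in endothelium, had 68.8, 68.0 and 73.3 CPM in mutant libraries and 81.3, 85.9 and 86.4 CPM in control libraries. It fell by 0.27 ± 0.0457 (SE) on the log2 scale (adjusted p = 0.00687, edgeR), with no overlap between groups. Stk25, a kinase that binds Pdcd10 protein, rose by 0.16 ± 0.0406 (SE) with 214.1 ± 2.51 CPM in mutant and 191.3 ± 8.88 CPM in control libraries (SD, n = 3 each; adjusted p = 0.0367, edgeR). Its adjusted p was 0.107, 0.0786 and 0.07 without mutant library 1, 2 and 3, and 0.123 and 0.119 without control library 1 and 2, and in these 5 fits 1 gene of the list was called. Stk25 shares 1013 exon bases with Farp2 on the other strand. Rap1a and Rap1b, the small GTPases that bring Krit1 to junctions, and Rasip1, which binds Heg1, did not pass, with log2 fold changes of 0.10, 0.06 and 0.06. Itgb1bp1, which binds Krit1, was at -0.07, Stk24 at -0.10 and Stk26, near 1 CPM, at 0.45, all not called.

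Map3k3 (ENSMUSG00000020700, chromosome 11, 106084613 to 106155446, plus strand) encodes MEKK3, the kinase that the complex restrains. It had 145.2, 149.9 and 160.1 CPM in mutant libraries and 146.8, 153.8 and 145.6 CPM in control libraries, with full overlap. The change was 2.00% (95% interval -5.35 to 9.93, adjusted p = 0.766 by edgeR).

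Around Map3k3, 19 genes were listed: genes of the MEKK3 to ERK5 axis, known outputs of CCM loss, and the endotoxin receptor genes Tlr4 and Cd14. Of the 19 genes 6 were higher, 2 lower and 11 not called (median 0.11). Among all genes 14.4% were called, and 23.7% of those within the members' range of mean CPM. The kinases of this axis below MEKK3 did not pass: Map2k5 had a log2 fold change of -0.04 and Mapk7, which encodes ERK5, one of -0.19. Klf2 and Klf4, transcription factors that rise when the complex is lost, were both lower. Klf2 was at 199.6 ± 2.60 CPM in mutant and 304.3 ± 3.63 CPM in control libraries (log2 fold change -0.61 ± 0.0299 SE), and Klf4 at 129.9 ± 8.66 and 190.7 ± 8.03 CPM (-0.55 ± 0.0563 SE; SD, n = 3 each; adjusted p = 2.39e-05 and 0.000606 by edgeR). Adamts1 and Adamts4, which encode proteoglycan-cleaving proteases, moved the other way. Adamts1 was at 332.6 ± 9.86 CPM in mutant and 214.4 ± 7.41 CPM in control libraries (log2 fold change 0.63, adjusted p = 6.45e-05, edgeR), and Adamts4 at 30.9 ± 0.503 and 22.3 ± 0.28 CPM (0.47, adjusted p = 0.000819, edgeR; SD, n = 3 each). Klf6 rose by 0.32 and Cd14, an endotoxin co-receptor gene also expressed by microglia, by 0.74, while microglial markers summed lower in the same mutant libraries; the part of these cells was not tested. The other genes called were Adamts5 (0.46) and Rock2 (0.21), both higher. The adjusted p of Adamts5 was 0.0506 without mutant library 1, and that of Rock2 was 0.0693 and 0.0553 without mutant library 2 and 3. Tlr4, the endotoxin receptor gene, was not called, at 2.72 ± 0.865 CPM in mutant and 9.38 ± 6.48 CPM in control libraries (SD, n = 3 each; adjusted p = 0.247 by edgeR).

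Rasa1 (ENSMUSG00000021549, chromosome 13, 85214780 to 85289130, minus strand), the brake on RAS, did not pass the test. It had 81.9, 84.4 and 81.0 CPM in mutant libraries and 89.2, 91.5 and 82.3 CPM in control libraries, where control library 3 lay within the mutant range. The percent change was -6.00 (95% interval -13.1 to 1.64, adjusted p = 0.296 by edgeR). Rasa1 shares 12 exon bases with Ccnh on the other strand, which was at 21.9 ± 0.831 CPM in mutant and 21.8 ± 0.87 CPM in control libraries (SD, n = 3 each).

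Braf (ENSMUSG00000002413, chromosome 6, 39603237 to 39725463, minus strand) was higher in the mutant. It had 51.2, 50.0 and 53.9 CPM in mutant libraries and 45.1, 43.7 and 41.5 CPM in control libraries. The lowest mutant library, library 2, lay above the highest control library, library 1. Its log2 fold change was 0.25 ± 0.052 (SE), a rise of 19.0% (95% interval 9.41 to 29.5, adjusted p = 0.017, edgeR). Without mutant library 1, control library 2 or control library 3 the adjusted p was 0.0508, 0.0512 and 0.0546, at log2 fold changes of 0.26, 0.26 and 0.22. Braf shares 146 exon bases with Ndufb2 on the other strand, which had 27.0 ± 0.932 CPM in mutant and 24.4 ± 1.38 CPM in control libraries (SD, n = 3 each; adjusted p = 0.187, edgeR); no label or header states whether counting was stranded. Its paralog Araf was at 51.4 ± 3.52 CPM in mutant and 49.0 ± 3.68 CPM in control libraries and was not called (SD, n = 3 each; adjusted p = 0.636 by edgeR).

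Map2k1 (ENSMUSG00000004936, chromosome 9, 64185770 to 64253631, minus strand), the MEK kinase below BRAF, was also higher. Its values were 73.1, 77.1 and 77.4 CPM in mutant libraries and 68.6, 68.7 and 66.8 CPM in control libraries, without overlap. The log2 fold change was 0.16 ± 0.0396 (SE), a rise of 11.5% (95% interval 4.61 to 18.9, adjusted p = 0.0371, edgeR). The call was kept without mutant library 1, and the adjusted p was 0.111 and 0.0854 without mutant library 2 and 3, and 0.0963, 0.0867 and 0.106 without control library 1, 2 and 3.

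Of 24 other genes of the RAS-MAPK core 2 were higher, 1 lower and 21 not called, against 14.4% called among all genes, with a median of 0.01 on the log2 scale. Spred1 and Spred2, inhibitors that act between RAS and RAF, were the higher ones. Spred1 was at 94.9 ± 1.47 CPM in mutant and 72.4 ± 2.68 CPM in control libraries (0.39 ± 0.0404 SE, adjusted p = 0.000658, edgeR), and Spred2 at 114.1 ± 5.18 and 96.9 ± 0.584 CPM (0.24 ± 0.0416 SE, adjusted p = 0.00849, edgeR; SD, n = 3 each). Without mutant library 2, 5 genes of the list were called, and 5 also when only library size was used for scaling.

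Nras varied more between libraries of 1 group than between the groups. It had 57.5, 180.2 and 50.9 CPM in mutant libraries and 163.4, 137.8 and 135.1 CPM in control libraries (adjusted p = 0.606, edgeR). Among 91 pathway genes with a mean of at least 5 CPM, 5 were 2-fold or more apart within a group: Nras, Grb2, Ksr1, Mef2c and Tlr4. No member was, and the highest library of a member was at most 1.39 times the lowest, in Heg1.

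Of 14 genes that ERK signalling induces, 5 were higher, 1 lower and 8 not called (median 0.19). The share called was 14.4% of all genes and 23.7% of those within the members' range of mean CPM. Etv4, an ETS factor, was at 13.5 ± 1.12 CPM in mutant and 5.36 ± 0.57 CPM in control libraries, a log2 fold change of 1.33 ± 0.114 (SE; adjusted p = 0.00027, edgeR; SD, n = 3 each). Spry4, a feedback inhibitor, rose by 0.40, Etv5 by 0.35, Ccnd1, which encodes cyclin D1, by 0.26, and Dusp5, a nuclear ERK phosphatase gene, by 0.59. Egr1, an immediate early gene, fell by 0.29. Spry1, another feedback inhibitor, and Ier3 were not called, at -0.14 and -0.17, with every mutant library below the control libraries. Spry2 was not called either, at 0.08. The phosphatase gene Dusp6 was at 303.9 ± 37.8 CPM in mutant and 266.9 ± 2.83 CPM in control libraries and did not pass (adjusted p = 0.242, edgeR; SD, n = 3 each). Adamts4, Ccnd1, Dusp5 and Spry1 share exon bases with genes on the other strand.

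Gnaq (ENSMUSG00000024639, chromosome 19, 16132831 to 16387463, plus strand) did not pass the test, though its groups did not overlap. It had 100.5, 98.9 and 109.2 CPM in mutant libraries and 114.6, 114.5 and 109.4 CPM in control libraries. Mutant library 3 and control library 3 nearly met. The percent change was -8.84 (95% interval -15.6 to -1.52, adjusted p = 0.117 by edgeR), and without mutant library 3 the adjusted p was 0.0361 and the log2 fold change -0.17.

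The Gq pathway moved both ways, with 5 of 19 genes higher, 4 lower and 10 not called (median -0.03). Across all genes the share called was 14.4%, and 23.7% for those within the members' range of mean CPM. Prkce, a protein kinase C gene, rose by 0.58 ± 0.0432 (SE), with 54.6 ± 0.101 CPM in mutant and 36.5 ± 1.05 CPM in control libraries (SD, n = 3 each, adjusted p = 0.000137, edgeR). It shares 472 exon bases with the gene AC154542.1 on the same strand. Rgs4, which shortens Gq signals, rose by 0.26. Plcb1 and Plcb4, which encode the phospholipases that Gq activates, fell by 0.34 and 0.33, and Plcb2 and Plcb3 were not called. Among the receptors for inositol trisphosphate, Itpr3 fell by 0.44 while Itpr1 and Itpr2 rose by 0.28 and 0.31. Plcb1, Itpr1 and Itpr3 share exon bases with genes on the other strand. The adjusted p of Itpr2 was 0.0591 and 0.0635 without mutant library 1 and 3, and 0.103 and 0.0981 without control library 1 and 3. Gna15, a paralog of Gnaq known from blood cells, fell by 0.67 with 3.33 ± 0.16 CPM in mutant and 5.31 ± 0.252 CPM in control libraries (SD, n = 3 each), while microglial and erythroid markers summed lower in the same mutant libraries; their part was not tested. Gna14 rose by 1.43 at a low level, 1.12 ± 0.0712 CPM in mutant and 0.411 ± 0.153 CPM in control libraries (SD, n = 3 each; adjusted p = 0.0257, edgeR). Its adjusted p was 0.0642, 0.0803 and 0.0574 without mutant library 1, 2 and 3, and 0.0804 and 0.0594 without control library 1 and 2.

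**Figure D3:**
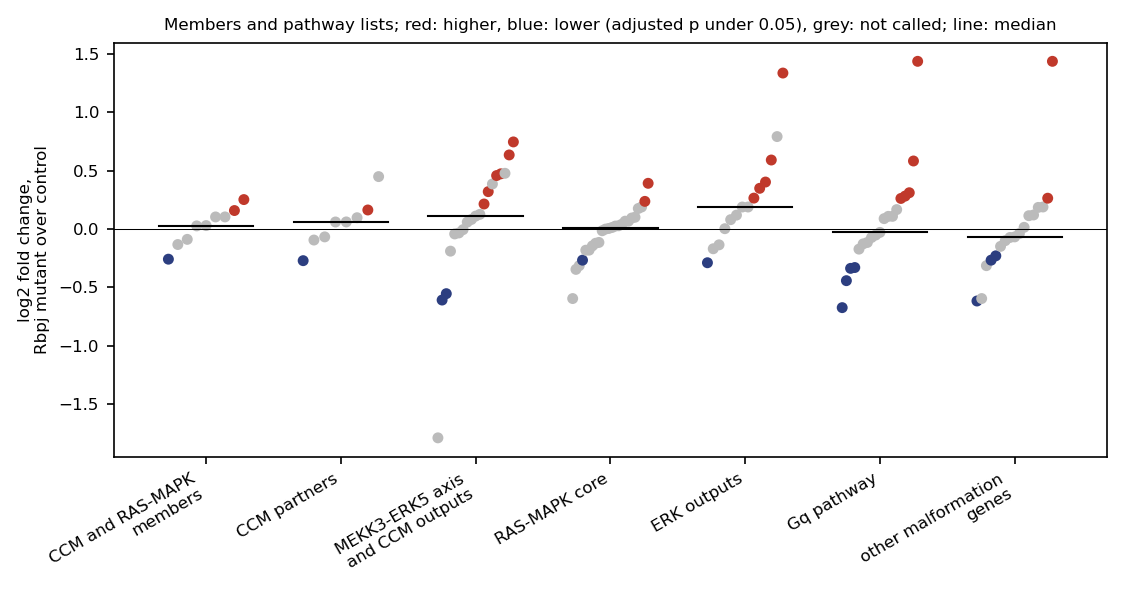
Log2 fold change of Rbpj mutant over control for the 9 members and the genes of 6 pathway lists, ordered by value within a list; red and blue points were higher and lower with an adjusted p under 0.05, grey points were not called and lines are medians. The medians lie between -0.07 and 0.19.

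Other genes of human vascular malformation were listed as 18, of which 17 passed the filter: 2 were higher, 3 lower and 12 not called (median -0.07). This compares with 14.4% of all genes called, and 23.7% of those within the members' range of mean CPM. Gdf2 had no counts in any library. Tek, the angiopoietin receptor gene mutated in venous malformation, fell by 0.62 ± 0.0553 (SE), with 397.2 ± 31.1 CPM in mutant and 609.1 ± 9.9 CPM in control libraries (SD, n = 3 each; adjusted p = 0.000346, edgeR). Flt4, the lymphatic VEGF receptor gene, rose by 0.26, and Elmo2, mutated in bone vascular malformation, fell by 0.23. The adjusted p of Elmo2 was 0.0504 without mutant library 2 and 0.0522 without control library 1, and without control library 1 3 genes of the list were called. Gna14, given above, was the other higher one. Eng, Acvrl1, Smad4, Pik3ca, Akt1 and Ephb4 did not pass.

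Per kilobase of annotated exon, Map3k3 was the most abundant member and Krit1 the least. In mutant libraries the levels were 37.7 ± 1.89 CPM per kilobase for Map3k3, 22.4 ± 0.712 for Map2k1, 19.1 ± 0.808 for Pdcd10, 16.6 ± 0.892 for Gnaq, 14.5 ± 1.38 for Heg1, 14.4 ± 0.44 for Ccm2, 11.3 ± 0.246 for Rasa1, 3.73 ± 0.144 for Braf and 1.16 ± 0.0612 for Krit1 (SD, n = 3). In control libraries they were 37.0 ± 1.11 for Map3k3, 20.1 ± 0.326 for Map2k1, 18.2 ± 0.48 for Gnaq, 17.8 ± 0.943 for Pdcd10, 17.4 ± 0.599 for Heg1, 13.4 ± 0.391 for Ccm2, 11.98 ± 0.652 for Rasa1, 3.13 ± 0.132 for Braf and 1.14 ± 0.083 for Krit1 (SD, n = 3). Gnaq, Pdcd10 and Heg1 did not differ beyond their spread in control libraries, nor did Heg1 and Ccm2 in mutant libraries. The level of Krit1 depends most on the length used, since its exons span 21853 bases in all and its longest transcript 5582 bases. Per kilobase of the longest transcript Krit1 was at 4.56 ± 0.24 in mutant and 4.48 ± 0.325 in control libraries, close to Braf at 5.31 ± 0.205 and 4.46 ± 0.188 (SD, n = 3 each).

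**Figure D4:**
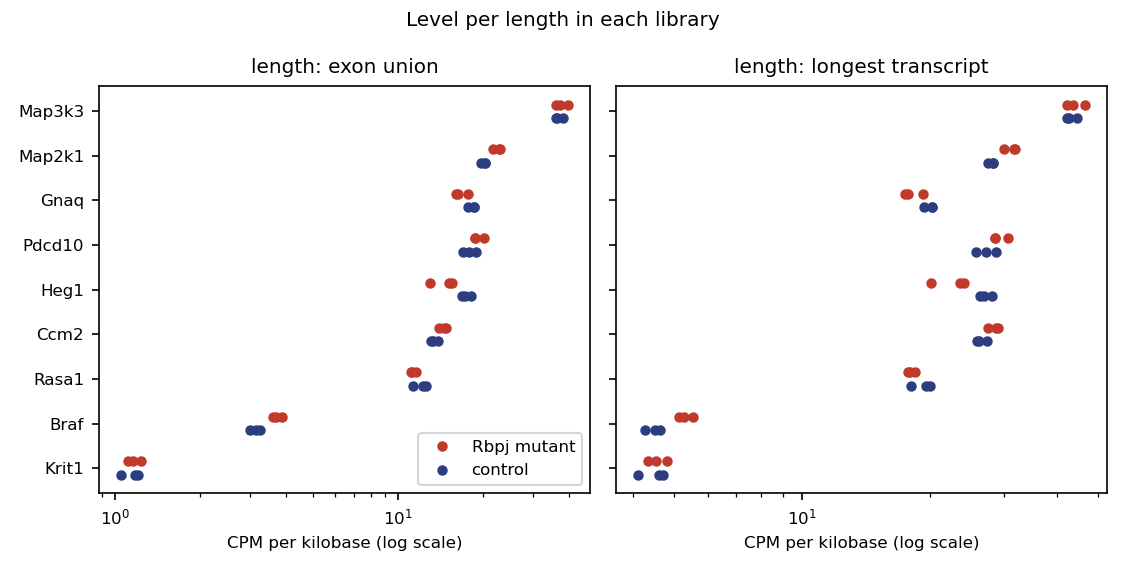
Level of each member in CPM per kilobase (log axis) in every library, Rbpj mutant above control, over the union of exons (left) and the longest transcript (right). Map3k3 is highest under both lengths, and Krit1 and Braf are the lowest pair.

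Most members have paralogs that could carry part of the same function, and the share of a family's summed level per kilobase was computed in every library. Map2k1 held 51.5%, 52.6% and 53.4% of the pair Map2k1 and Map2k2 in mutant libraries and 50.0%, 49.5% and 50.6% in control libraries, while Map2k2 was at 114.5 ± 1.68 and 113.5 ± 4.18 CPM (adjusted p = 0.888 by edgeR). For Ccm2 the share of Ccm2 and Ccm2l was 32.7%, 34.0% and 32.6% in mutant libraries and 28.2%, 27.9% and 26.7% in control libraries, a difference of 5.48 percentage points. Map3k3 held 96.1 ± 0.244% of Map3k3 and Map3k2 in mutant and 95.5 ± 0.15% in control libraries (SD, n = 3 each). In these 3 families the groups did not overlap. The shares of Gnaq among Gnaq, Gna11, Gna14 and Gna15, 28.4 ± 1.63% in mutant and 29.0 ± 1.17% in control libraries, and of Rasa1 among 5 genes, 39.8 ± 6.28% and 41.7 ± 0.615%, overlapped (SD, n = 3 each). The spread of the Rasa1 share came with Rasa3, which was at 69.7, 37.5 and 69.7 CPM in mutant libraries and 60.9, 58.1 and 55.0 CPM in control libraries. By an exact two-sided permutation test the p of these 3 families was 0.1, the smallest that 3 against 3 libraries allow, or 0.15 adjusted over the 6 families computed, and the unadjusted p for Gnaq and Rasa1 was 0.8 and 0.7. The size of a share depends on the length used. Over the longest transcript Map2k1 held 39.6 ± 0.933% in mutant and 37.2 ± 0.503% in control libraries. Ccm2 then held 48.0 ± 0.885% in mutant and 41.6 ± 0.98% in control libraries (SD, n = 3 each).

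**Figure D5:**
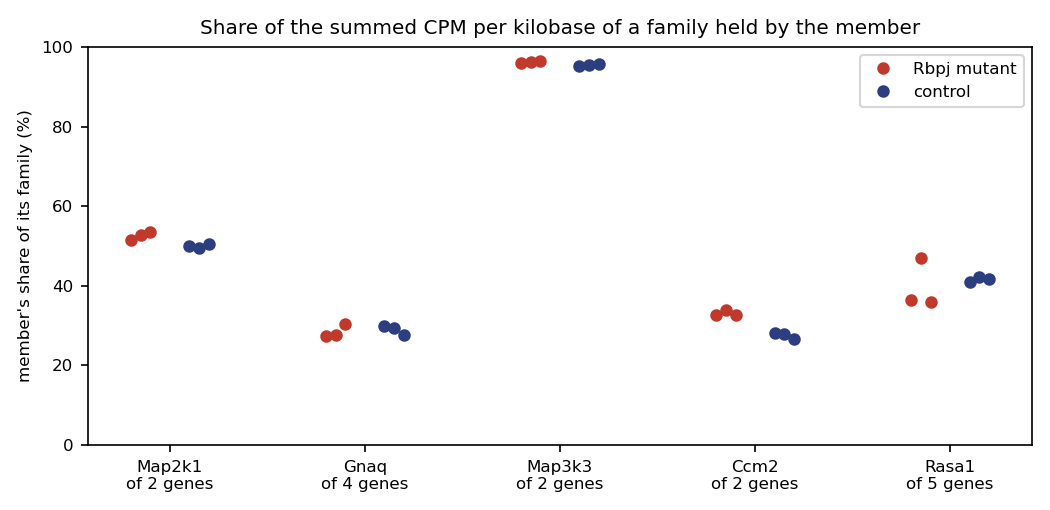
Share of a family's summed CPM per kilobase of exon held by the member (vertical axis, 0 to 100%), one point a library, Rbpj mutant left of control. Groups are apart for Map2k1, Map3k3 and Ccm2, and overlap for Gnaq and Rasa1.

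For each member that passed the test, the 3 genes with the most similar values over the 6 libraries were found among 11737 genes with a mean of at least 5 CPM. Likeness was the root mean square difference of log2 CPM after centring each gene. It includes the group difference by which the members were called, and no baseline distance was computed. Shared regulation was not tested. For Braf these were Topors, a ubiquitin and SUMO ligase gene (0.0111), the anchoring protein gene Akap13 (0.0204) and the replication factor gene Mcm3 (0.0234). Map2k1 was closest to the cytokine kinase gene Jak1 (0.0145), Iqsec1 (0.0153) and the G protein gene Gna13 (0.0164). Heg1 was closest to Brms1l (0.0219), Zkscan1 (0.0254) and Cngb1 (0.0325). Jak1 was at 213.6 ± 5.39 CPM in mutant and 190.2 ± 3.91 CPM in control libraries, and Topors at 58.1 ± 2.04 and 48.7 ± 1.66 CPM (SD, n = 3 each).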

How the data were processed

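The authors deposited whole-number estimated counts for each gene, not normalized, so rounding changed nothing. The submitters' processing notes list StringTie 1.3.4, HISAT2, edgeR, FastQC 0.10.1, cutadapt 1.10 and the build GRCm39, with no annotation, settings or use of strand. All 55450 identifiers match GENCODE release 21 of mouse (M21, GRCm38), which gave symbols, coordinates and exon lengths. Low values pile up at 4: 1118 to 1190 genes a library had a count of 4, against 316 to 365 with 3. The deposited quality table gives the count of valid reads, and total counts were 1.51 to 1.53 times that number.

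Genes were filtered with filterByExpr (19549 left), scaled by TMM, and compared with the edgeR 4.0.16 quasi-likelihood test (robust, group as the only term, R 4.3.3), with Benjamini-Hochberg adjustment over all genes tested; the SE is the log2 fold change over the square root of F. The planned count test was kept for the estimated counts, and its fit to them was not tested. With counts divided by 4, 16488 genes were left and 2944 were called, against 2812 in the main fit. DESeq2 1.42.0 and limma-voom (limma 3.58.1) were alternatives. Within a group, libraries were further apart than sampling noise if 4 units of count are taken as 1 read pair. On counts divided by 4 the median chi-square was 1.77 to 2.46 times its expectation. Between groups it was 4.72 to 5.39 times its expectation, and no libraries were merged. The members, lists and tests were chosen with earlier results of these data known. Named are all members, their paralogs, divergent partners within 1000 bases, and up to 6 called genes a list with the smallest p; Adamts5, Rock2, Itpr1, Itpr2 and uncalled genes of a list and the cell markers were added after their values were seen. A few genes of the lists, and the share of Braf in its family, are not reported here. Sequences are from RefSeq. The fits without 1 library leave a group with 2.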

Additional observations from a re-analysis of the deposited data

How the results depend on the processing

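Braf and Map2k1 kept their direction under all 14 alternatives and were called under 10 and 8 of them, and Heg1 was called under 3 of 14; the causes were not tested. The adjusted p of Heg1 was 0.0556 with RLE size factors (log2 fold change -0.25), 0.056 without the low-count filter (-0.25), 0.0562 with limma-voom (-0.26) and 0.0503 with counts divided by 4 (-0.25), and it passed with DESeq2, with library size only and with the stricter filter. With 1 library left out, its log2 fold change lay between -0.30 and -0.18, that of Braf between 0.22 and 0.28, that of Map2k1 between 0.14 and 0.18, that of Gnaq between -0.17 and -0.10 and that of Rbpj between -0.23 and -0.19. In the same fits 0 to 2 members were called, 1 to 2 of the CCM partners, 3 to 5 of the RAS-MAPK core, 3 to 5 of the other malformation genes, and 807 to 1125 genes lower. With library size only, 5 of the RAS-MAPK core were called. Krit1 and Map3k3, not called in any fit, changed sign in fits without 1 library.

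The libraries share replicate numbers between the groups, but deviations of same-numbered libraries did not correlate (-0.00, 0.01 and 0.03), so the numbers were not taken as pairs. With the replicate block 0 members were called: the log2 fold change was 0.25 for Braf (adjusted p = 0.0637), 0.16 for Map2k1 (0.102) and -0.26 for Heg1 (0.117); 1 of the CCM partners was called, and 2059 genes in all. Under the block the calls of Stk25 (adjusted p = 0.0736), Adamts5 (0.0501), Rock2 (0.0685), Gna14 (0.0618) and Itpr2 (0.0834) also ended.

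Per kilobase of the longest transcript, control means were 4.48 for Krit1, 26.4 for Ccm2, 27.2 for Pdcd10, 27.1 for Heg1, 43.1 for Map3k3, 19.2 for Rasa1, 4.46 for Braf, 27.9 for Map2k1 and 20.0 for Gnaq. Family shares over that length, an alternative chosen after seeing the data, kept their direction in all 6 families computed. Depth limits low genes such as Gna14 and Stk26, near 1 CPM, and intervals reflect these 6 libraries only.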
